A study of Mus musculus with 24 samples.

Results

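Genes of the bone morphogenetic protein (BMP) and transforming growth factor beta (TGF-beta) pathways were examined in 7 lists of histone mark peaks from mouse forelimb buds and NIH3T3 fibroblasts. The set was a fixed list of 37 of the 21938 protein-coding genes: 13 ligands, 9 receptors, 4 extracellular antagonists and 11 intracellular effectors. For each gene, the peaks overlapping its mm10 gene body and 20 kb on either side, called its locus here, were counted and the base pairs (bp) they covered were summed. Member loci spanned 41.2 to 372 kb, with a median of 79.4 kb against 57.4 kb over all coding genes, so levels of different genes are compared per kb of locus. No member locus overlapped another. In 25 member loci there was no start of another coding gene, and the other 12 held 1 to 3, whose own peaks are counted too.

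BMPs, GDFs and TGF-betas are secreted dimers that bring type I and type II receptor kinases together. The type I receptor then phosphorylates receptor SMADs, which pair with SMAD4 and act on target genes in the nucleus. SMAD6 and SMAD7 are induced by the signal and inhibit it, and the ID proteins, which block basic helix-loop-helix factors, are among its best known targets. Extracellular antagonists such as noggin and chordin bind the ligands before they reach a receptor. In the limb bud, BMPs act on the apical ridge, on digit identity and on cell death between digits, and BMP antagonism by gremlin links them to Sonic hedgehog (SHH).

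The limb samples were forelimb buds of Swiss Webster embryos at E10.5 with 32 to 35 somites, either labelled wild type (WT) or homozygous for a null allele of Shh (Shh-/-). By the study's methods the control limbs came from wild-type and heterozygous littermates together, and limbs were pooled across embryos and litters. H3K27ac, found at active promoters and enhancers, and H3K4me2, found at promoters and enhancers whether or not these are acetylated, were mapped in both genotypes, and the Polycomb mark H3K27me3 in Shh-/- limbs, with 400000 cells per immunoprecipitation. NIH3T3 cells, an embryonic fibroblast line, were grown in low serum for 48 h with 400 nM of the Hedgehog agonist purmorphamine or with its solvent DMSO, and H3K27ac was mapped with 1000000 cells per immunoprecipitation. The labels of both NIH3T3 groups also name LIF. The limb and NIH3T3 H3K27ac experiments used different antibodies, so levels set across them are descriptive.

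Each list came from 2 immunoprecipitations that the authors' peak caller had pooled, so the lists carry no spread between replicates and no difference between conditions could be tested. The lists held 20830 (H3K27me3) to 90989 peaks (DMSO H3K27ac) on the assembled chromosomes. WT limbs had 49679 H3K27ac peaks and Shh-/- limbs 43916. Depth per library cannot be read from them. Of 6 limb mesenchyme markers, 5 had an H3K27ac peak within 1 kb of the start in each limb list, and 3 did in each NIH3T3 list. Of 5 fibroblast markers 4 did with purmorphamine and 5 with DMSO, and 1 in WT and 2 in Shh-/- limbs. Several markers were thus acetylated in both limbs and NIH3T3 cells. The blood (0 of 2) and liver (0 of 1) markers had none in any list. Fgf10 was the limb marker with no peak near its annotated start, in any of the lists. Among markers of other cells, Cdh5 (endothelium) and Meox1 (somite) had H3K27ac in WT limbs alone and Pax3 (muscle precursors) in Shh-/- limbs alone. Trp63 (ectoderm) had it with purmorphamine alone. The part of such cells in the results was not tested.

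Promoter marks differed between the roles of the 37 members, a split that other pathway genes described last did not all share. A promoter was the annotated gene start with 1 kb on either side, and it was called marked if a peak touched it. In WT limbs H3K27ac marked the promoters of 9 of 9 receptors and 11 of 11 effectors, but of 6 of 13 ligands and 0 of 4 antagonists. H3K27me3, mapped in Shh-/- limbs, marked 4 of 4 antagonists, 6 of 13 ligands, 1 of 11 effectors and 0 of 9 receptors. In the same Shh-/- limbs H3K27ac marked 9 of 9 receptors, 11 of 11 effectors, 8 of 13 ligands and 2 of 4 antagonists. The antagonists were Nog and Bmper, each with a peak of 100 bp, so both marks were called at their promoters. Over all roles, 26 of 37 members carried promoter H3K27ac in WT limbs (70.3%, 95% Wilson interval 54.2 to 82.5) against 41.0% of all coding genes, 30 of 37 carried it in Shh-/- limbs (81.1%, 65.8 to 90.5) against 38.1%, and 11 of 37 carried H3K27me3 (29.7%, 17.5 to 45.8) against 11.5%. These intervals cover counting error only. These counts by role of WT H3K27ac and of H3K27me3 were the same with 2 kb on either side, with the start of any transcript and with FDR under 0.05. In the better-ranked 50% of every list they were the same too, except that Gdf11 was outside the better-ranked 50% of WT H3K27ac peaks.

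**Figure D1:**
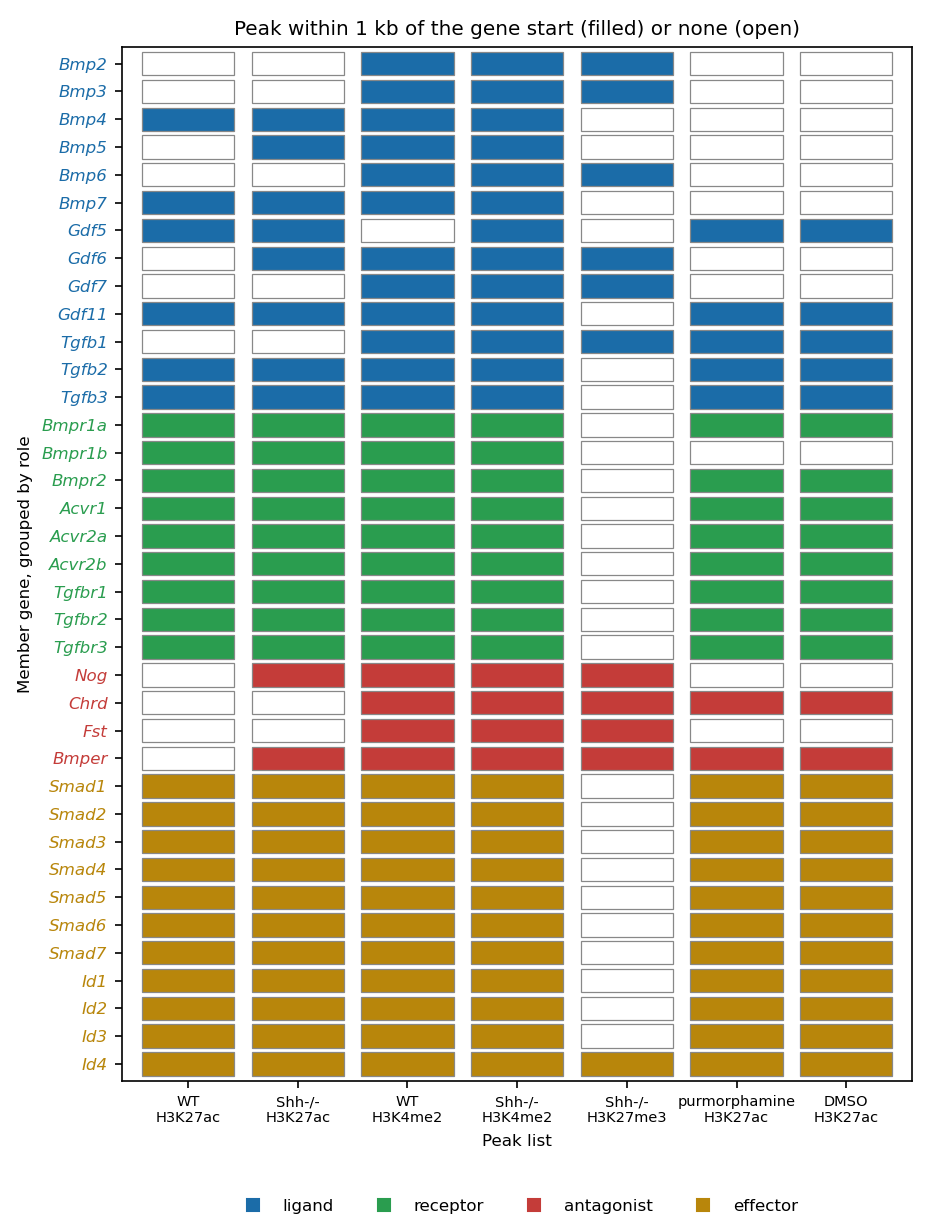
Each row is a member gene, coloured and grouped by role, and each column a peak list. A filled box is a peak within 1 kb of the gene start and an open box none. The 9 receptors and 11 effectors are filled in both limb H3K27ac columns, and the 4 antagonists are all filled in the H3K27me3 column.

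H3K4me2 did not divide the roles. It marked 36 of 37 member promoters in WT limbs and 37 of 37 in Shh-/- limbs, against 60.8% and 60.3% of all coding genes. The member without it in WT limbs was Gdf5, a joint-forming ligand, whose nearest WT H3K4me2 peaks lay in its intron with centres 1368 and 1743 bp from the start, while Shh-/- limbs had peaks of 300 and 150 bp centred 318 bp inside and 207 bp upstream of the start.

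Among the antagonists, noggin (Nog), which sequesters BMPs, had a 2300 bp H3K27me3 peak in the best 4.39% of its list and H3K4me2 peaks covering 2700 bp in WT and 2900 bp in Shh-/- limbs. Follistatin (Fst), which binds activins and some BMPs, had 2 H3K27me3 peaks covering 3550 bp, no H3K27ac peak anywhere in its locus in either limb list, and 3050 bp (WT) and 2600 bp (Shh-/-) of H3K4me2. Chordin (Chrd) had a 1650 bp H3K27me3 peak at its start, and in both limb lists 1000 bp of H3K27ac elsewhere in a locus that holds 3 other gene starts. Bmper, a secreted BMP-binding protein with roles on either side of the pathway, had a 1550 bp H3K27me3 peak just inside the gene. All 4 promoter regions thus carried H3K4me2 together with H3K27me3. The lists came from bulk tissue, and whether both marks lay on the same nucleosomes or in different cells cannot be told apart.

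Ligands fell into sets. Bmp4, Bmp7, Gdf5, Gdf11, Tgfb2 and Tgfb3 had promoter H3K27ac and no promoter H3K27me3. Bmp2, Bmp3, Bmp6, Gdf7 and Tgfb1 had promoter H3K27me3 and no promoter H3K27ac in either genotype. Gdf6 had H3K27me3 at its promoter and a promoter H3K27ac peak in Shh-/- limbs, and Bmp5 had no promoter H3K27me3. Gdf7 held the best-ranked H3K27me3 peak of any member, in the best 0.163% of the list: it was 6650 bp wide, chr12:8296650-8303299, and covered the whole gene, chr12:8297918-8301954. Bmp6 had a 2400 bp peak (best 1.26%) and Tgfb1 a 3100 bp peak (best 3.43%). Bmp2, which the limb ridge and mesenchyme are known to express, had a 1900 bp H3K27me3 peak (best 10.8%) and still 1900 bp (WT) and 1700 bp (Shh-/-) of H3K27ac in its locus, none of it within 1 kb of the start.

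The state of H3K4me2 with H3K27me3 and without H3K27ac, scored in Shh-/- limbs where all 3 marks were mapped, was found at 7 of 37 member promoters (18.9%, 9.48 to 34.2) against 8.80% of all coding genes. These were 5 ligands (Bmp2, Bmp3, Bmp6, Gdf7 and Tgfb1) and 2 antagonists (Chrd and Fst). No receptor or effector was in this state. In the better-ranked 50% of every list the count was 11 (6.40% of all coding genes), with Nog, Gdf6, Bmper and the effector Id4 added, whose Shh-/- promoter H3K27ac peaks ranked 73.9% to 94.1% of the way down the list. H3K27me3 in WT limbs was not analysed here.

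Receptor promoters were acetylated without exception in the limb. The BMP type II receptor Bmpr2 had promoter H3K27ac peaks in the best 1.65% of the WT and 0.478% of the Shh-/- list, the activin type IIB receptor Acvr2b in the best 1.05% and 2.12%, and the BMP type I receptor Bmpr1a in the best 2.26% and 1.11%. Tgfbr3 (betaglycan), a TGF-beta co-receptor, had the longest acetylation of any receptor locus, with 17930 bp in WT and 13250 bp in Shh-/- limbs, or 80.4 and 59.4 bp per kb. Acvr1, a type I receptor for BMPs, was at the low end with 9.38 and 5.72 bp per kb.

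Per kb of locus, the effectors Id1, Id2 and Id3 held the densest limb acetylation of the set. As a role the effectors did not stand apart from the ligands. Their median was 37.2 bp per kb in WT and 29.6 in Shh-/- limbs, against 31.0 and 33.5 for ligands. Receptors had medians of 23.5 and 21.3 and antagonists of 0.496 and 2.94. Id1 had 13550 bp in WT and 14850 bp in Shh-/- limbs, Id3 13400 and 14450 bp, and Id2 7850 and 8500 bp, against median densities over all coding loci of 7.33 and 4.85 bp per kb. Per kb of locus Id1 stood at 329 and 361, Id3 at 317 and 342, and Id2 at 181 and 196. The Id2 promoter lay in the peak ranked 5 of all WT H3K27ac peaks, chr12:25096250-25101999, which was 5750 bp wide with a largest log2 ChIP-to-input ratio of 7.51. Id4 did not resemble the other ID genes. It had 750 bp in WT and 350 bp in Shh-/- limbs, or 16.7 and 7.81 bp per kb, and was the effector with a promoter H3K27me3 peak, which was 300 bp wide. The inhibitory SMADs stood above the receptor SMADs, with Smad7 at 110 and 132 bp per kb and Smad6 at 94.1 and 98.6, while Smad1, Smad2, Smad3 and Smad5 lay between 12.8 and 37.2 in WT limbs and Smad4, which encodes the common partner, at 11 in both genotypes.

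**Figure D2:**
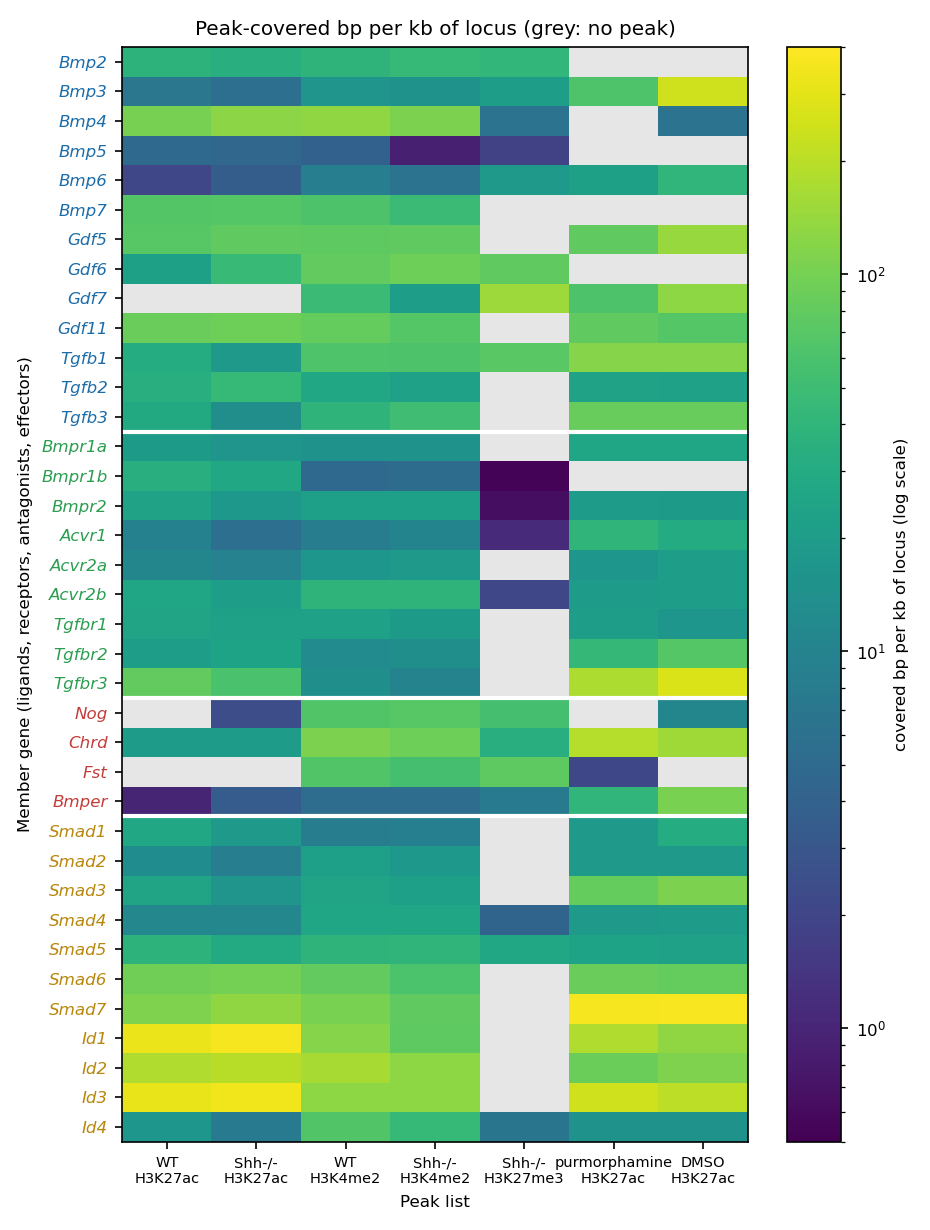
Rows are the 37 members, from ligands at the top to effectors at the bottom, columns are the 7 lists, and colour is the covered bp per kb of locus on a log scale, with grey for no peak. Id1, Id2 and Id3 are the brightest limb H3K27ac rows (181 to 361 bp per kb), and 5 of 9 receptors and 8 of 11 effectors are grey for H3K27me3.

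Promoter sequences from RefSeq (GRCm38.p6) were matched for 24 of the 37 members, giving 29 windows of 300 bp. They were rich in CpG, with a median of 27 CpG dinucleotides per window against 7.00 over all 32851 windows. Windows of the 6 matched members with promoter H3K27me3 had 26 to 39 (median 30.5), and the 23 windows of the others had 3.00 to 54.0 (median 25.0). The Bmp5 window had 4 CpG. RefSeq windows can belong to other starts of a gene than the one scored for peaks: the 3 windows of Bmpr1b, with 5 or 6 CpG, lie inside the gene as annotated here.

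The promoters of Id2 and Smad6 were picked by hand as examples of windows with a match to a SMAD-type sequence. Both genes are known to respond to BMP signals and were among the most acetylated members. The matched window of Id3, which was more densely acetylated than Smad6, held no such match and is not shown. Both are RefSeq windows in the direction of transcription, chr12:25096043-25096342 for Id2 and chr9:64022010-64022309 for Smad6, both on the minus strand, with 21 and 31 CpG. Capitals mark exact matches, on either strand, to the GC-rich SMAD-type sequence GGCGCC in Id2 and to the SMAD palindrome GTCTAGAC in Smad6.
Id2: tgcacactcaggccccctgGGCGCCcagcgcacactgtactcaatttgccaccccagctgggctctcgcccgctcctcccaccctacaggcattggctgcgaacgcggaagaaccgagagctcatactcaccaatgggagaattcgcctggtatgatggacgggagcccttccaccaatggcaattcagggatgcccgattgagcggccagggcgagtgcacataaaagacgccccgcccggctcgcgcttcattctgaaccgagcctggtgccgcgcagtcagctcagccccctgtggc
Smad6: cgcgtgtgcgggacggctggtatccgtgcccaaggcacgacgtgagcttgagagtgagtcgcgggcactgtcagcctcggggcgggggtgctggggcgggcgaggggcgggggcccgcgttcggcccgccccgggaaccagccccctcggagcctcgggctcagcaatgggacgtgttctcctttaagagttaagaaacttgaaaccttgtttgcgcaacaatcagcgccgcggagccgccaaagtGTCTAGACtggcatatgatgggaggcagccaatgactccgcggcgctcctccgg
GGCGCC was found in 8 of the 29 member promoter windows (27.6%) and in 11.9% of all windows, and GTCTAGAC in 1 (that of Smad6) and in 0.213% of all windows. A match is a description of letters and no evidence of binding.

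Next, covered bp were compared between WT and Shh-/- limbs, the question being whether loss of SHH changed acetylation at these loci. A locus was scored if at least 1000 bp were covered in 1 of the lists, and it was called at a difference of at least 2-fold. For limb H3K27ac 30 of 37 members were scored. Of these 1 (3.33%) was called lower in Shh-/- limbs, where 10.7% of all scored loci were, and 2 (6.67%) were called higher, where 1.10% of all scored loci were. The median log2 ratio of WT to Shh-/- coverage was 0.06 for the members and 0.27 for all scored loci with peaks in both lists, and WT was the larger in 15 members and Shh-/- in 13, against 6925 and 1959 of all loci. With so few called members and no replicates the shares are counts of these lists. In the better-ranked 50% of peaks neither call of higher coverage was made, with Gdf6 at 950 and 1850 bp (1.95-fold) and Bmper at 0 and 300 bp, below the minimum. Without peaks at neighbouring gene starts Tgfb3 had 1650 and 850 bp (1.94-fold) and was not called.

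The member called lower was Tgfb3, a TGF-beta ligand involved in palate and mesenchyme development, with 1800 bp in WT and 850 bp in Shh-/- limbs (2.12-fold). Its promoter peaks were in both lists, at chr12:86079200-86079599 in WT and chr12:86079150-86079599 in Shh-/- limbs, in the best 14.0% and 22.7% of the lists. The difference lay mainly at the far end of the window, where WT limbs had 3 unshared peaks of 200 to 250 bp in an intron of the neighbouring gene Ttll5, with centres 40892 to 42067 bp from the Tgfb3 start, and Shh-/- limbs had 1 of 150 bp. The WT peaks lay 50 to 500 bp from that peak, so the same region was marked in both. WT limbs also had an unshared 150 bp peak in an intron of Ift43. With the gene body only, Tgfb3 had 550 and 250 bp (2.2-fold), below the minimum for scoring, and Acvr1 was the member called lower.

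The members called higher in Shh-/- limbs were Gdf6, a BMP-type ligand needed for joints, and Bmper. Gdf6 had 5 peaks and 1300 bp in WT and 10 peaks and 2600 bp in Shh-/- limbs. Both lists had peaks about 7 kb upstream of the start, with centres at -7523 bp (WT) and -7573 bp (Shh-/-), and in the intron, at 2977 and 3077 bp, and Shh-/- limbs had further unshared peaks of 100 to 300 bp beside both sites. Bmper had 1 peak of 300 bp in WT limbs, upstream of the gene, and 4 peaks and 1050 bp in Shh-/- limbs (3.50-fold), of which 2 lay in introns, at 53073 and 156173 bp from the start. Both Bmper lists were sparse for a locus of 302 kb, at 0.993 and 3.48 bp per kb, and with the gene body only they held 0 and 900 bp, below the minimum for scoring.

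**Figure D3:**
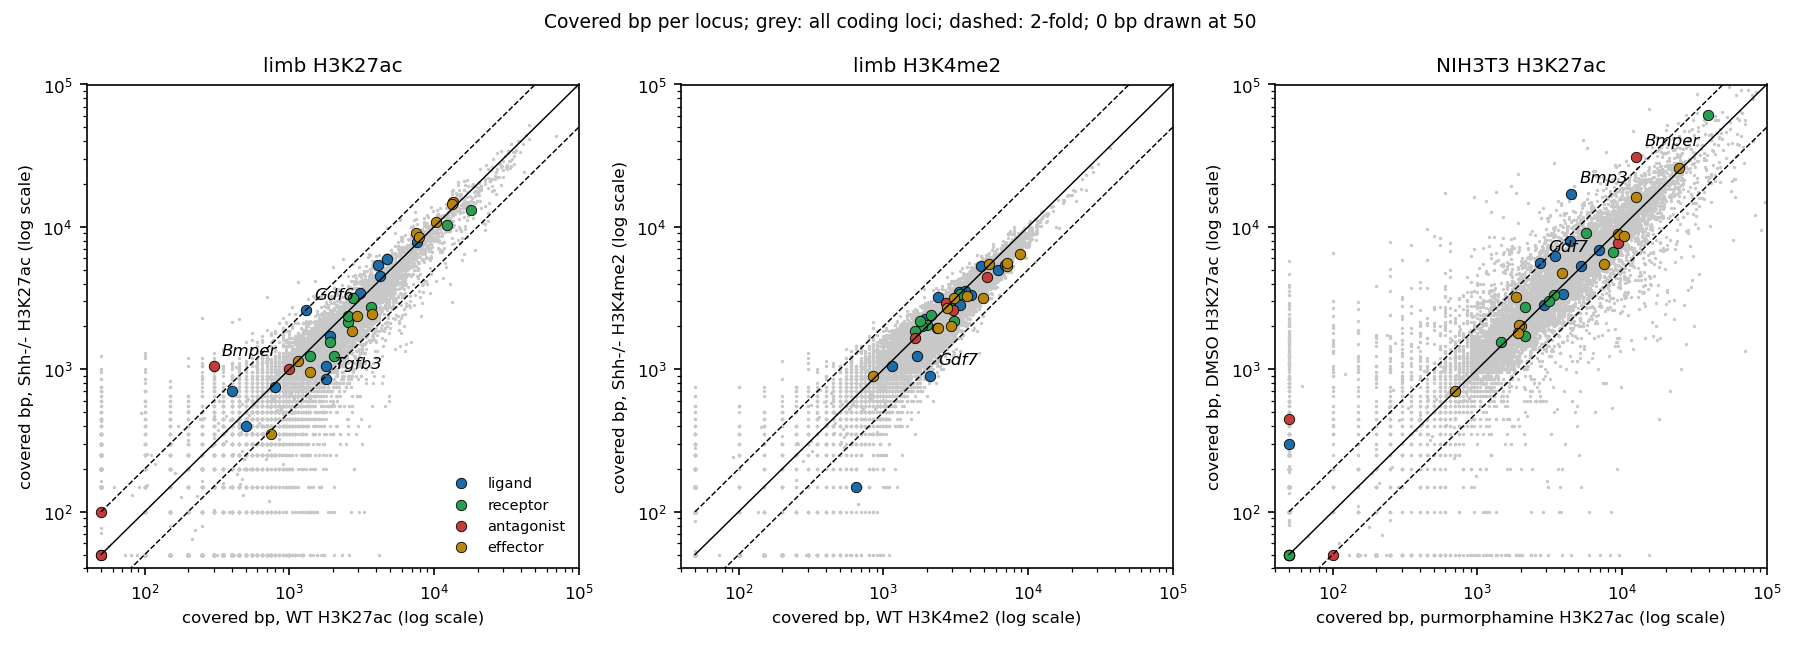
Each point is a locus, plotted by its covered bp in the 2 lists of a pair on log axes, with all coding loci in grey and the members coloured by role. The solid line is equality and dashed lines mark 2-fold. Of the limb H3K27ac calls Tgfb3 (1800 and 850 bp) lies on the WT side and Gdf6 and Bmper on the Shh-/- side, and the NIH3T3 calls (Bmp3, Bmper, Gdf7) all lie on the DMSO side.

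The members with the most limb acetylation were not called. Tgfbr3 had 31 peaks and 17930 bp in WT and 21 peaks and 13250 bp in Shh-/- limbs (0.44 on the log2 scale of WT over Shh-/-), and Bmpr1b had 27 peaks and 12250 bp against 23 peaks and 10300 bp (0.25). Bmp4, the main mesenchymal BMP of the limb, had 5 peaks and 4750 bp in WT and 9 peaks and 5950 bp in Shh-/- limbs. Bmp7, a ligand of ridge and mesenchyme, had 7600 and 7800 bp, but its peaks were placed differently. In WT limbs 6 unshared WT peaks of 100 to 200 bp lay in the distal part of the gene, with centres 51647 to 72197 bp from the start, where Shh-/- limbs had none, while Shh-/- limbs had a single peak of 3350 bp in the intron near the start, chr2:172932750-172936099, where WT limbs had 3 peaks of 950 to 1000 bp. Smad7 had 7500 bp in 10 peaks and 9000 bp in 22 peaks, a difference of over 2-fold in peak number but not in covered bp. All 3 of Id1, Id2 and Id3 had slightly more covered bp in Shh-/- than in WT limbs, by -0.11 to -0.13 on the log2 scale of WT over Shh-/-.

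By role, the median log2 ratio of WT over Shh-/- coverage was -0.10 for the 9 scored ligands, 0.25 for the 9 receptors, -0.03 for the 10 scored effectors and -0.90 for the 2 scored antagonists, which were Bmper and Chrd. Of the 9 receptors 8 had more covered bp in WT limbs, the exception being Tgfbr2 (2750 and 3150 bp). Acvr1 had the largest ratio among receptors (2050 and 1250 bp, 0.71 on the log2 scale). Smad3, a TGF-beta receptor SMAD, had 3750 bp in 8 peaks in WT and 2450 bp in 3 peaks in Shh-/- limbs (0.61). Both were below 2-fold, and the receptor median was close to the 0.27 of all loci.

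At promoters the genotypes differed in 1 direction among the members, though not among the other pathway genes described last. The 26 promoters acetylated in WT limbs were all acetylated in Shh-/- limbs, where 11.7% of all acetylated coding promoters were not. Of the 11 without H3K27ac in WT limbs 4 had a peak in Shh-/- limbs (Nog, Gdf6, Bmper and Bmp5), where 3.25% of all such promoters did. These 4 peaks were at the edge of detection. Each was 100 bp wide, the narrowest width among the member peaks, and their FDRs were 0.0498 (Nog), 0.0487 (Gdf6), 0.0151 (Bmper) and 0.0627 (Bmp5), with ranks from 73.9% to 98.7% of the way down the list. In the better-ranked 50% of peaks none of the 4 was present, and Gdf11 was the member acetylated in Shh-/- limbs alone and Id4 in WT limbs alone. The nearest WT peak was 2550 to 92500 bp away. At Nog, Gdf6 and Bmper the promoter also carried H3K27me3.

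**Figure D4:**
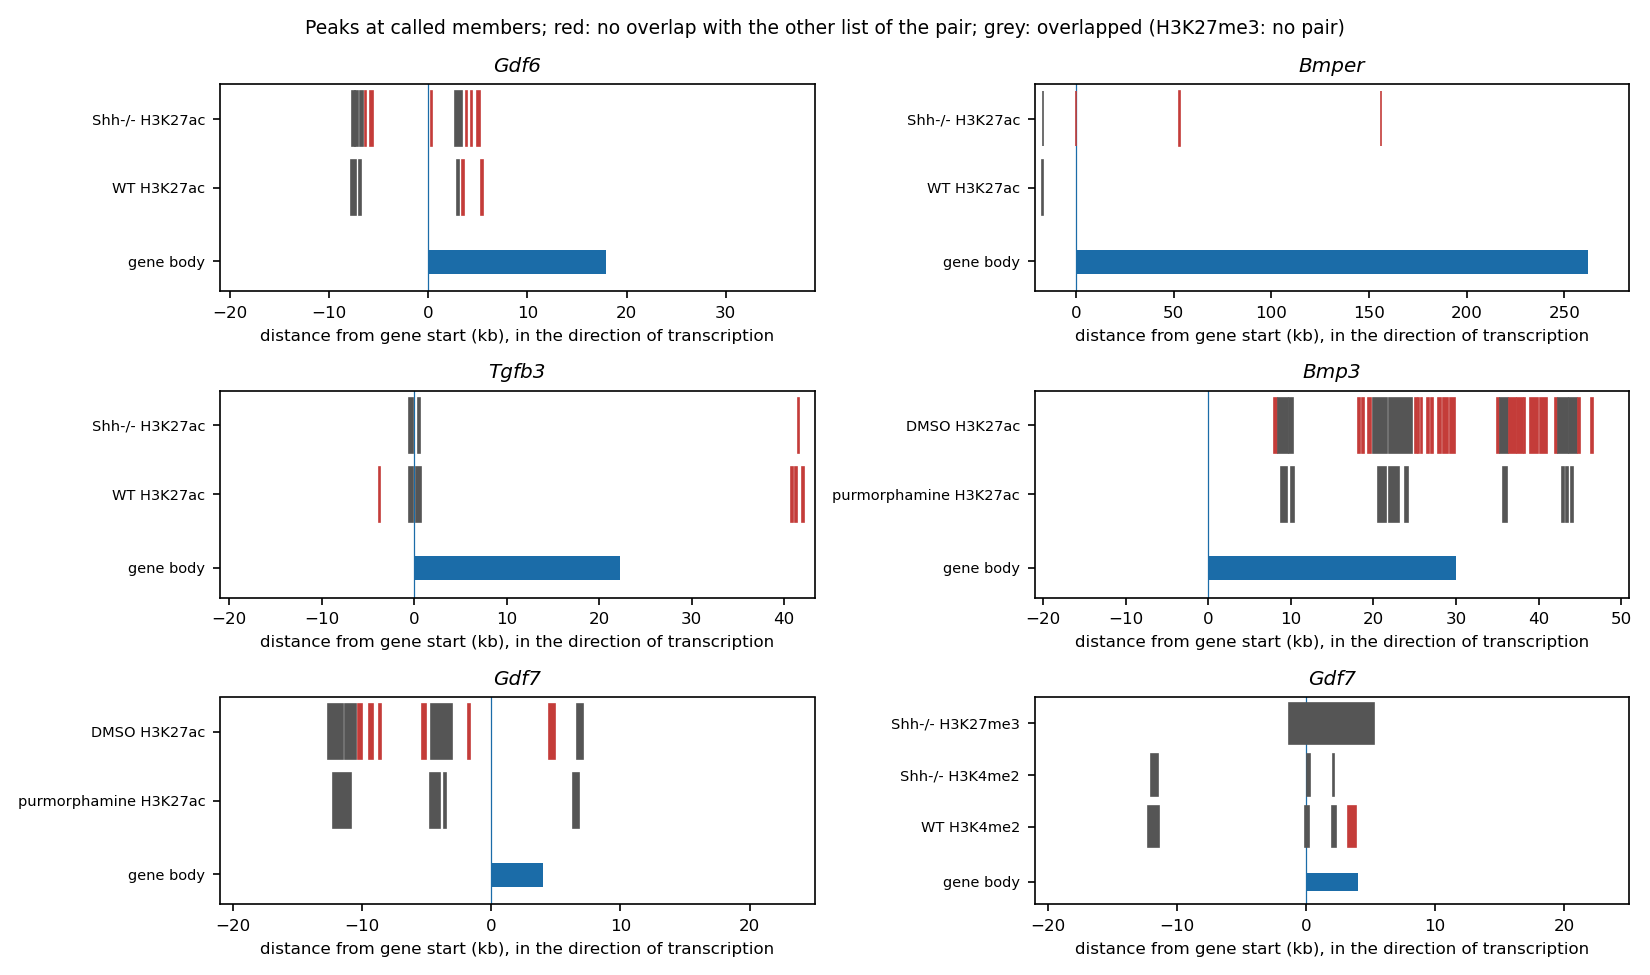
Peaks of each list are drawn to scale by their distance from the gene start in kb, along the direction of transcription, with the gene body as a blue bar. Red peaks overlap no peak of the paired list and grey peaks do, or, for H3K27me3, have no paired list. DMSO peaks at Bmp3 flank the 9 shared purmorphamine peaks, and the H3K27me3 peak of Gdf7 spans the whole gene.

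For limb H3K4me2 35 members were scored. Gdf7, a ligand with known roles in the dorsal neural tube and in tendon, was called lower in Shh-/- limbs (1 of 35, 2.86%, against 1.93% of all scored loci) and no member was called higher (0.260% of all scored loci). Gdf7 had 4 peaks and 2100 bp in WT and 3 peaks and 900 bp in Shh-/- limbs (2.33-fold). The WT peak without a counterpart, chr12:8298050-8298699, was 650 bp wide, lay in an exon of Gdf7 and ranked 85.1% of the way down its list. In the better-ranked 50% of peaks Gdf7 had 1450 and 800 bp (1.81-fold) and was not called. The median log2 ratio was 0.13 for the members and 0.16 for all loci. Id1, with 4850 bp in WT and 3150 bp in Shh-/- limbs (0.62), had the next largest ratio, in the direction opposite to its H3K27ac. Bmp5 had 650 and 150 bp, below the minimum for scoring.

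H3K27me3 peaks anywhere in the locus were found for 19 of 37 members (51.4%, 35.9 to 66.6) against 36.9% of all coding loci. By role these were 8 of 13 ligands, 4 of 9 receptors, 4 of 4 antagonists and 3 of 11 effectors. In the 4 receptors (Bmpr1b, Bmpr2, Acvr1 and Acvr2b) the peaks were 100 to 250 bp wide with FDRs of 0.108 to 0.246, centred 13726 to 152333 bp from the start (Bmpr1b and Acvr1). Of the H3K27me3 list, 47.2% of peaks had an FDR under 0.05. With those alone, 13 of 37 members had a peak, none of them a receptor, where 25.0% of all coding loci did. The 2150 bp peak in the Smad5 locus (best 3.86%) was centred 50314 bp from the Smad5 start, within the separate gene Gm45623. Gdf7 and Gdf6 were covered most densely, at 151 and 78.5 bp per kb, followed by Fst (76.1) and Tgfb1 (73.2). Gdf6 carried 7 H3K27me3 peaks from its first to its last exon.

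In NIH3T3 cells the comparison asked whether acetylation at these loci differed with Hedgehog activation. Of 28 members scored, 0 were called higher with purmorphamine (3.76% of all scored loci) and 3 were called lower (10.7%, against 6.09% of all scored loci). They were Bmp3, Bmper and Gdf7. Bmp3, a ligand known to oppose other BMPs, had 9 peaks and 4450 bp with purmorphamine and 28 peaks and 17150 bp with DMSO (3.85-fold). All 9 purmorphamine peaks overlapped DMSO peaks, while 21 of the 28 DMSO peaks had no counterpart. The peaks began about 8 kb inside the gene and ran past its end, and no list had H3K27ac within 1 kb of the Bmp3 start. The DMSO peak ranked best there, chr5:98874350-98876099, was in the best 1.38% of its list.

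Bmper had 41 peaks and 12450 bp with purmorphamine and 64 peaks and 31050 bp with DMSO (2.49-fold), and 41 of the DMSO peaks and 12 of the purmorphamine peaks were unshared. Its promoter peak was in both lists, 1400 bp wide with purmorphamine and 1750 bp wide with DMSO. Gdf7 had 4 peaks and 2700 bp against 10 peaks and 5600 bp (2.07-fold). Its gene start had no H3K27ac peak within 1 kb in either list, and the best-ranked peaks of the locus lay at the start of the neighbouring gene Hs1bp3. Without peaks at neighbouring gene starts Gdf7 was still called, at 1300 and 3350 bp (2.58-fold). It was not called with 50 kb on either side (3850 and 6550 bp, 1.70-fold) or in the better-ranked 50% of peaks (2600 and 3650 bp, 1.40-fold). With the gene body only, Gdf7 had no H3K27ac peak in either list and was not called. Bmp3 and Bmper were called under every change of peak threshold and locus width, but Bmper was not by number of peaks.

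The longest acetylation of any member was at Tgfbr3 in NIH3T3 cells, with 39580 bp with purmorphamine and 61180 bp with DMSO, or 177 and 274 bp per kb. It reached 8150 bp in a single DMSO peak, chr5:107118850-107126999, and differed by less than 2-fold (-0.63 on the log2 scale of purmorphamine over DMSO). Smad7 had 24850 and 25950 bp, and its promoter peak was the best-ranked member peak with purmorphamine (best 0.107%). Among differences under 2-fold, the larger ones were toward DMSO, at Bmp6 (4400 and 8000 bp, -0.86), Gdf5 (3450 and 6250 bp, -0.86), Smad1 (1850 and 3200 bp, -0.79) and Tgfbr2 (5600 and 9000 bp, -0.68). Larger values with purmorphamine included Id1 (7500 and 5450 bp, 0.46), Acvr1 (8600 and 6650 bp, 0.37), Tgfbr1 (2150 and 1700 bp, 0.34), Chrd (9400 and 7650 bp, 0.30) and Id3 (10353 and 8603 bp, 0.27). The median log2 ratio was -0.04 for the members and -0.08 for all loci.

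Promoter H3K27ac marked 26 of 37 members in either NIH3T3 list, the same 26 with purmorphamine and DMSO, where 50.0% of all coding promoters were marked in each. By role they were 5 of 13 ligands, 8 of 9 receptors, 2 of 4 antagonists and 11 of 11 effectors. Compared with WT limbs, Bmp4, Bmp7 and Bmpr1b, a type I receptor of cartilage precursors, were acetylated at the promoter in limbs and not in purmorphamine-treated cells, and Chrd, Tgfb1 and Bmper in those cells and not in WT limbs. Bmp7 and Bmpr1b had no H3K27ac peak anywhere in their loci in NIH3T3 cells, and neither did Bmp2, Bmp5 and Gdf6, while Bmp4 had 1 DMSO peak of 300 bp. In Shh-/- limbs Bmpr1b alone had 10300 bp.

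Bmper was the member called in both H3K27ac comparisons, with the larger coverage in each case in the list without Hedgehog input: Shh-/- over WT in limbs (1050 and 300 bp) and DMSO over purmorphamine in NIH3T3 cells (31050 and 12450 bp). No member was called in opposite directions. The limb values rest on 1 and 4 peaks.

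Peaks were then classed as unshared if they overlapped no peak of the paired list by at least 1 bp. At the members 94 of 241 WT H3K27ac peaks were unshared (39%, 33.1 to 45.3), against 45.6% of peaks in any coding locus, and 87 of 225 Shh-/- peaks (38.7%, 32.5 to 45.2), against 34.4%. For H3K4me2 the shares were 23.9% (18.3 to 30.6) in WT and 21.2% (16.3 to 27.2) in Shh-/- limbs, against 23.0% and 19.5%. In NIH3T3 cells they were 22.7% (18.3 to 27.7) with purmorphamine, against 33.0%, and 47.6% (42.6 to 52.5) with DMSO, against 38.2%. Bmper, Tgfbr3 and Smad3 held 101 of the 185 unshared DMSO peaks, and at the other members 38.2% of DMSO peaks were unshared. With purmorphamine Bmper, Acvr1 and Smad3 held 29 of the 69, and at the other members 17.9% were unshared. The members set apart were those with the most unshared peaks, a choice that by itself lowers the share at the rest. The shares at the rest are thus not comparable with those of all coding loci. Neighbouring peaks of 1 locus are not independent, so the intervals are too narrow.

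**Figure D5:**
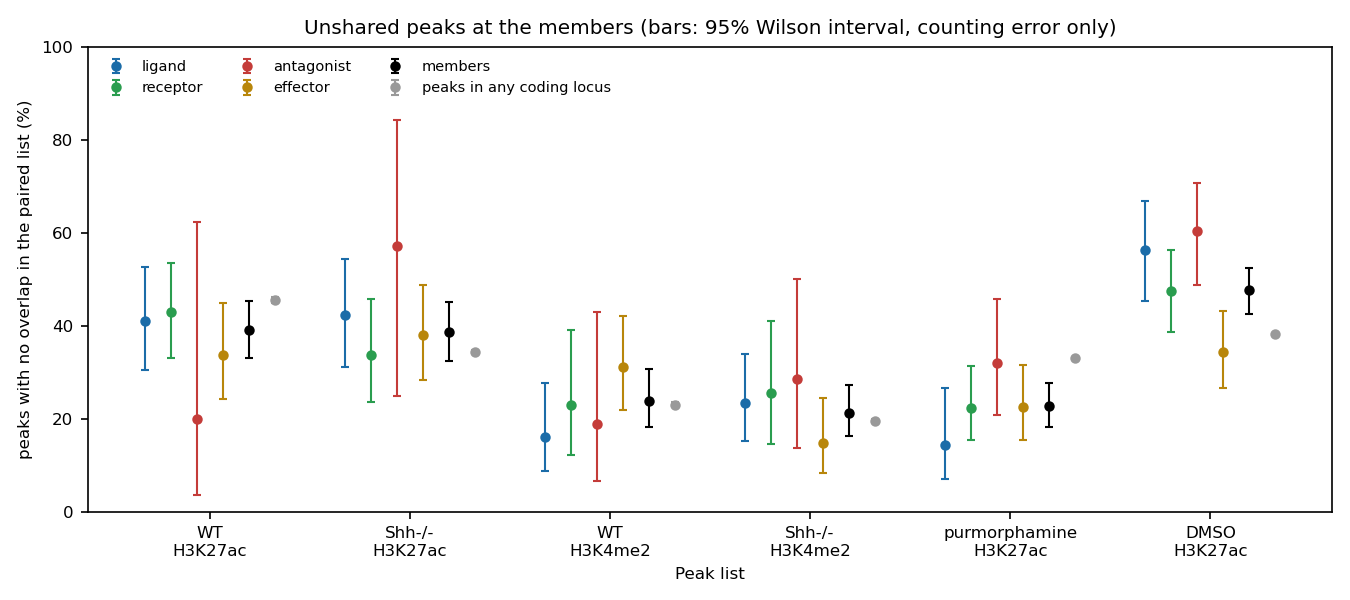
Points are the percent of peaks with no overlap in the paired list, by role, for all members and for all coding loci, with 95% Wilson intervals. The DMSO members stand at 47.6% against 38.2% for all coding loci and the purmorphamine members at 22.7% against 33.0%.

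Among roles the antagonists had the fewest limb H3K27ac peaks, 5 in WT and 7 in Shh-/- limbs, of which 1 and 4 were unshared. Of the DMSO peaks 60.3% (48.8 to 70.7) were unshared at antagonists, 56.4% (45.4 to 66.9) at ligands, 47.4% (38.6 to 56.4) at receptors and 34.4% (26.6 to 43.2) at effectors. Single loci carried much of this, so the shares are not traits of the roles. Bmper held 64 of the 73 antagonist peaks and 41 of the 44 unshared ones. Bmp3 held 21 of the 44 unshared ligand peaks, Tgfbr3 38 of the 55 at receptors and Smad3 22 of the 42 at effectors. Many unshared member peaks had a peak of the other list at most 500 bp away. These were 36 of the 94 in WT limbs, 40 of the 87 in Shh-/- limbs, 40 of the 69 with purmorphamine and 76 of the 185 with DMSO. For unshared peaks in any coding locus the counts were 6273 of 16238 and 5167 of 10776 in the limb lists. They were 7430 of 20813 with purmorphamine and 9161 of 25305 with DMSO. The member share was thus near that of all coding loci in limbs and larger with purmorphamine.

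The best-ranked unshared H3K27ac member peak of each list is shown by the 300 bases around its centre, on the plus strand of mm10, together with the unshared H3K27ac member peak that held the GLI sequence. In WT limbs it was a 350 bp peak in an intron of Bmpr1b, 249 kb from the start, chr3:141920000-141920349 (best 18.5%), with the nearest Shh-/- peak 1250 bp away. In Shh-/- limbs it was a 650 bp peak 3.66 kb upstream of Gdf5, chr2:155948700-155949349 (best 16.7%), 350 bp from a WT peak. With purmorphamine it was a 1550 bp peak in an intron of Acvr1, chr2:58516800-58518349 (best 20.4%), 250 bp from a DMSO peak. With DMSO it was a 300 bp peak in an intron of Uqcc1, the gene next to Gdf5, chr2:155928750-155929049 (best 20.9%), directly adjoining a purmorphamine peak. The fifth, a 250 bp DMSO peak in an intron of Smad6, chr9:63978350-63978599 (best 46.3%), lay 500 bp from a purmorphamine peak, and its match to GACCACCCA at chr9:63978479-63978487 is in capitals. The other windows held none of the 3 motifs and are in lower case.
Bmpr1b, WT only: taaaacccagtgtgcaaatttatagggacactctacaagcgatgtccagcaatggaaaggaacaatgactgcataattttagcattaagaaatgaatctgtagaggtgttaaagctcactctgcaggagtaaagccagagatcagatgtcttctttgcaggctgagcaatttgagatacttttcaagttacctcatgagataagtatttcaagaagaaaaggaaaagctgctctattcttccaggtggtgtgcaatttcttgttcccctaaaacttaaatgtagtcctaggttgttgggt
Gdf5, Shh-/- only: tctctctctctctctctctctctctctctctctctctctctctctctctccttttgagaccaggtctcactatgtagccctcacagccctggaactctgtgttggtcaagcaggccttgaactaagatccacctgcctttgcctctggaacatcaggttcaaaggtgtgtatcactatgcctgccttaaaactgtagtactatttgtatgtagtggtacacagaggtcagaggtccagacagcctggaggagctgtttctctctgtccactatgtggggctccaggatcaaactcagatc
Acvr1, purmorphamine only: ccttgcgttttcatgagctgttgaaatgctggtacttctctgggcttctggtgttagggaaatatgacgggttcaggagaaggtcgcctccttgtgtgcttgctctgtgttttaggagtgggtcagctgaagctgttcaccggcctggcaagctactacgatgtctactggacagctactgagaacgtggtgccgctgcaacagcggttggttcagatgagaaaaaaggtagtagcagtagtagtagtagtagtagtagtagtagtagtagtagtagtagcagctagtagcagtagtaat
Gdf5, DMSO only: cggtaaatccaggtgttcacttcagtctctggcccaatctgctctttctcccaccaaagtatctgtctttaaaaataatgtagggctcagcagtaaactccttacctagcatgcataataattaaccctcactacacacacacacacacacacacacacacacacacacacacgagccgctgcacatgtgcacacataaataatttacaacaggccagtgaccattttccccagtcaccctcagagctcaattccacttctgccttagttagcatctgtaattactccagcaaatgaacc
Smad6, DMSO only with GLI sequence: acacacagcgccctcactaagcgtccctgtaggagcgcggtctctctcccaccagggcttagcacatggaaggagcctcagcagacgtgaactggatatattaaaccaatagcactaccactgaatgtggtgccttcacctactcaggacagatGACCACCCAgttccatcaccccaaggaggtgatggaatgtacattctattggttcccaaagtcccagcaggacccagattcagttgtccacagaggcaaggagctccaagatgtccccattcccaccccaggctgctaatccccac
The Gdf5 window of Shh-/- limbs opened with a run of tc repeats, the Acvr1 window closed with repeats of tag, and the Gdf5 window of DMSO cells held a run of ac repeats. Read mapping in such repeats is less certain, and its part in these calls was not tested.

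The GLI sequence GACCACCCA, the site recognised by the transcription factors of the Hedgehog pathway, was searched on both strands in the central 300 bp of every peak. It was in 0 of 241 WT and 0 of 225 Shh-/- limb H3K27ac member peaks, where 0.252% and 0.171% of all peaks of those lists held it, shares too small for these numbers of peaks to show a difference. Over all lists 3 member peaks held it: the DMSO peak of Smad6, a shared DMSO peak beyond the end of Tgfb2, chr1:186609350-186609649, and the H3K27me3 peak at the start of Tgfb1, chr7:25687000-25690099. GGCGCC was in 21 of 241 WT (8.71%, 5.77 to 13) and 23 of 225 Shh-/- limb H3K27ac member peaks (10.2%, 6.91 to 14.9), against 7.00% and 7.29% of all peaks. It was in 23 of 304 purmorphamine member peaks (7.57%, 5.09 to 11.1) and 19 of 389 DMSO member peaks (4.88%, 3.15 to 7.50), against 4.13% and 3.80%. The palindrome GTCTAGAC was in at most 2 member peaks of any list. A match in so short a window is no site, and its absence says nothing of the factor.

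The 34 other pathway genes, a list that adds further antagonists, ligand-processing proteins, activins, receptors and regulators, were counted in the same way. In WT limbs 21 of 34 had promoter H3K27ac (61.8%, against 41.0% of all coding genes), 33 of 34 had H3K4me2, and 11 of 34 had H3K27me3 in Shh-/- limbs (32.4%, against 11.5%). Promoter H3K27ac was found at 17 of 34 in Shh-/- limbs (50.0%, against 38.1%). Grem1, Inhba, Sostdc1, Rgma, Rgmb and Zeb2 had it in WT limbs alone, and Chrdl1 and Nbl1 in Shh-/- limbs alone. Unlike the members, these genes thus differed in both directions. By role, the split seen among the members did not hold for antagonists and receptors. WT H3K27ac marked 5 of 10 other antagonists (Grem1, Twsg1, Sostdc1, Fstl1 and Crim1) and 4 of 7 other receptors and co-receptors, and H3K27me3 marked 4 of 10 antagonists and 4 of 7 receptors (Acvrl1, Acvr1c, Rgma and Rgmb). The 9 other effectors followed the member effectors, with H3K27ac at 8 and H3K27me3 at 0, and of 4 other ligands 1 had H3K27ac and 3 had H3K27me3. For limb H3K27ac 20 were scored, of which 3 (15.0%, against 10.7% of all scored loci) were called lower and 0 (against 1.10%) higher in Shh-/- limbs. These were Grem1, the BMP antagonist that relays SHH to the ridge, with 1000 bp in WT limbs and no peak in Shh-/- limbs, the protease gene Tll1 with 2850 and 1250 bp, and the SMAD-binding repressor Zeb2 with 2550 and 350 bp (7.29-fold). Grem1 was also called in NIH3T3 cells, lower with purmorphamine (5250 and 12800 bp), so its 2 calls were in opposite directions with respect to Hedgehog input. Its limb coverage of 1000 bp was exactly the minimum for scoring, and no alternative setting was run for the other pathway genes. Chrdl1, a chordin-like antagonist, was lower with purmorphamine as well (6950 and 22250 bp).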

How the data were processed

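The 7 peak lists came from 24 libraries in 14 groups, of which 14 were immunoprecipitations and 10 inputs, grouped by the sample labels. The authors had aligned reads to mm10 with Bowtie2 2.2.5 and called peaks against input with CisGenome 2.1.0 on both replicates of a condition together. For each peak the authors deposited an FDR (a q-value), a score by which peaks are ranked, a log2 ratio of ChIP to input and −log10 of a Poisson p-value. These were used only to rank, filter and describe peaks. Reads per library were not used here. The study's methods give a minimum depth per sample, which the peak lists do not allow to be checked.

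Overlaps of the peaks on assembled nuclear chromosomes were taken with protein-coding genes of GENCODE vM21 basic, whose assembly, GRCm38, is mm10. Overlap counts were tested on simulated data and against bedtools 2.31.1. Shares have 95% Wilson intervals. With 1 list per condition no test was made. Named were all members called in a comparison, all with promoter H3K27me3, the leading member of each role, the best-ranked unshared peaks and peaks with the GLI sequence. CpG counts, the 4 promoter peaks found in Shh-/- limbs alone and individual members compared below 2-fold were chosen after their values were seen. The members and lists were chosen with earlier results of these data known. The alternatives were other peak thresholds, list sizes, flanks, folds, overlaps and promoter definitions.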

Additional observations from a re-analysis of the deposited data

How the results depend on the processing

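No paired analysis was possible because both replicates of a condition were pooled in 1 list, and for the same reason no replicate could be left out. Of 129 recomputed values 98 stayed within their error or within 1.5 times the main count. Of 48 recomputed differences of the called members 40 were still called, 5 fell under 2-fold, 3 fell under the minimum of 1000 bp and 0 changed direction. The 48 leave out Gdf7 in NIH3T3 cells with the gene body only, where neither list had a peak and the call was lost. In the better-ranked 50% of every list, 2 of 28 scored members (Acvr1, Tgfb3) were lower in Shh-/- limbs for H3K27ac (14.3% of all scored loci). In the same setting 0 were higher (1.85%). For H3K4me2 2 of 35 (Bmp6, Id1) were lower (9.68%). Promoter H3K4me2 and H3K27me3 without H3K27ac was found for 11 (6.40% of all coding genes). Promoter H3K27ac was in Shh-/- limbs alone for 1 (2.29%) and in WT limbs alone for 1 (6.28%). The unshared shares were 29.7% (WT), 29.0% (Shh-/-) and 41.0% (DMSO), against 40.3%, 29.3% and 30.4% of all peaks kept. With the gene body only, 1 of 21 scored members was higher in Shh-/- limbs for H3K27ac (1.81% of all scored loci). For H3K4me2 3 of 31 (Gdf7, Id1, Id3) were lower (3.32%), and 2 of 23 (Chrd, Id3) were higher with purmorphamine (4.85%). Without peaks at other gene starts, 0 of 28 were lower for limb H3K27ac (11.6% of all loci) and 1 of 35 (Gdf5) was higher for H3K4me2 (0.469%). By peak number 3 were lower (18.2% of all loci) and 3 higher (6.79%) for limb H3K27ac, 4 higher for H3K4me2 (7.66%) and 6 lower with purmorphamine (12.8%). At 1.5-fold, 4 of 30 were lower for limb H3K27ac (25.7% of all loci), 2 of 35 for H3K4me2 (9.21%) and 8 of 28 with purmorphamine (14.0%). Requiring 50% overlap, the unshared shares were 48.1% (WT), 45.3% (Shh-/-), 30.9% (purmorphamine) and 59.4% (DMSO), and with gaps under 500 bp counted as shared 26.1%, 22.2%, 9.87% and 29.0%. By covered bp the member shares were 26.8% (WT), 24.9% (Shh-/-) and 39.8% (DMSO), against 40.3%, 29.5% and 34.0% over all peaks. The cause of these shifts was not tested. Promoter starts of any transcript, an FDR under 0.05 at promoters and all settings for the combined promoter state were tried after the data were seen. The number of peaks called limits every count here.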
